A study of Mus musculus with 4 samples.

Results

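Regions of H3K27 acetylation (H3K27ac) that the authors' annotation assigned to microRNA genes were examined in mouse liver, in 1 table of regions for sham-operated animals and 1 for animals after partial hepatectomy (PHx). Members were all rows whose gene name begins with Mir and a digit or with Mirlet7. They numbered 283 of 21772 regions, 155 of 11602 in the sham table and 128 of 10170 in the PHx table. These rows named 172 genes, of which 171 are microRNA hairpins and 1, Mir99ahg, is a long transcript that hosts microRNAs. All mice were wild type C57/BL6J according to the series description. The sham group had 2 libraries, whose labels give no time after surgery while the design text names 0 h, and the PHx group had 2 libraries taken 12 h after removal of 70% of the liver. Nuclei came from frozen liver, and CUT&Tag, which cuts DNA near an antibody-bound mark with a tethered transposase, was run with an H3K27ac antibody. The labels do not say which animals the libraries came from, and each group was deposited as 1 merged table, so replicates give no error for the values below and nothing was tested for significance. The tables hold positions and widths without signal, and the depth of the libraries is unknown.

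MicroRNAs are short RNAs that pair, mainly through a seed near their 5′ end, with messenger RNAs and lower their output. Each is cut from a hairpin within a longer primary transcript, which often starts far upstream and in many cases is the pre-mRNA of a host gene. H3K27ac marks active promoters and enhancers. The start that the tables list for a microRNA gene is the 5′ end of the hairpin, not that of the primary transcript, so a region there shows acetylated chromatin over the hairpin and does not by itself place a promoter. In liver, microRNAs are known for parts in lipid metabolism, hepatocyte maturation and the control of proliferation.

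Mature sequences of the microRNAs on which the results turn are printed here because shared seeds tie several loci together. They are from RefSeq (GRCm38.p6), 5′ to 3′, with the seed, bases 2 to 8, in capitals. The first 3 microRNAs carry the let-7 seed, the next 2 are neighbours in 1 cluster, the miR-101 pair follows, and then 2 hepatocyte microRNAs, the pair of the pantothenate kinase genes and others of metabolism, growth and blood cells.
mmu-let-7g-5p: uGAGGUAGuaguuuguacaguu
mmu-let-7i-5p: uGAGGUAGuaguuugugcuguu
mmu-miR-1961: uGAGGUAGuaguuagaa
mmu-miR-99b-5p: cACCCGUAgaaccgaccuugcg
mmu-miR-125a-5p: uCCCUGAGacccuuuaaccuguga
mmu-miR-101a-3p: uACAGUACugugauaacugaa
mmu-miR-101b-3p: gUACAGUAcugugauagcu
mmu-miR-148a-3p: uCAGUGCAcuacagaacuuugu
mmu-miR-802-5p: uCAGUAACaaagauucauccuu
mmu-miR-103-3p: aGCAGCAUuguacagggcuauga
mmu-miR-107-3p: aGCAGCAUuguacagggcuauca
mmu-miR-33-5p: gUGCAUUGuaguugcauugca
mmu-miR-29b-3p: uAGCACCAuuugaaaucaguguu
mmu-miR-15a-5p: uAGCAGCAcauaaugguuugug
mmu-miR-139-5p: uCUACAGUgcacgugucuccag
mmu-miR-142a-3p: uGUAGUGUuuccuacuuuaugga

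Counted from the 5′ end, let-7g-5p and let-7i-5p differed by A17G and A19U, both outside the seed, and miR-103-3p and miR-107-3p by G22C alone. The 3p forms of miR-101a and miR-101b are offset by a base at their 5′ end, so their seeds are not the same letters. Mir29b-1 and Mir29b-2 give the same mature 3p sequence. Mature sequences were matched for 158 of the 172 genes, leaving chromosome 18 aside, and their 262 mature forms had 252 seeds, of which 10 were held by more than 1 gene. Of the pairs shown, Mir1961 shares its seed with let-7g and let-7i, and Mir103-2 with Mir107.

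Markers of several liver cell types were covered differently in the tables, counting a region within 1 kb of the gene start. The 4 hepatocyte markers looked up (Alb, Apoa1, Ttr and Hnf4a) had a region at the start in both tables. The 4 endothelial markers had none in sham and all 4 had one after PHx. For Kupffer cells 2 of 3 listed markers had one in sham and 3 after PHx, and for stellate cells 1 of 2 and 2. Lymphocyte markers were not analysed here, and Snap25, a neuronal gene, had none in either table. The part of cell makeup in the results below was not tested, and in bulk liver more cells of a type and more acetylation per cell cannot be told apart. All regions were wider after PHx, with a median of 14551 bp against 8153 bp in sham.

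Regions assigned to microRNA genes were wider than the table medians, and in sham a smaller share of them were promoter regions than in the whole table. Their median width was 9596 bp in sham (quartiles 6718 and 13877 bp) and 16386 bp after PHx (quartiles 10981 and 25250 bp). The narrowest measured 2888 and 5352 bp. By the authors' classes 91 of 155 sham regions were promoter regions, 58.7% (Clopper-Pearson 95% interval 50.5 to 66.5%, counting error only), against 67.8% of all sham regions. After PHx the share was 70.3% (61.6 to 78.1%) against 75.4% of all. Introns held 20 sham and 9 PHx regions, exons 19 and 9, distal intergenic stretches 8 and 12. A hairpin start lay inside 81 sham and 85 PHx regions, and 64 sham and 38 PHx regions lay over 3 kb away from it.

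Counting any shared base, most members overlapped a region of the other table, at about the rate of all regions. In sham 134 of 155 did, 86.5% (80.0 to 91.4%), and after PHx 95 of 128 did, 74.2% (65.7 to 81.5%). The 21 sham members without overlap were 13.5%, where 14% of all sham regions had none, and the 33 PHx members were 25.8%, where 22.5% of all PHx regions had none. A PHx member overlapped several sham regions in 22 cases, 17.2%, against 15.9% of all PHx regions, and a sham member overlapped several PHx regions in 2 cases, 1.29% against 0.733%. The overlapping region often named another gene. This was so for 47 of the 134 sham members and 16 of the 95 PHx members, since a region is given 1 gene name and a wider region may reach other starts.

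Gene names and covered starts therefore gave different counts. By name, 78 of the 172 genes were in both tables (45.3%, against 61.2% of all gene names), 39 in PHx only (22.7%, against 17.6%) and 55 in sham only (32.0%, against 21.2%). Of the 55 genes named in sham only, 26 had a region within 1 kb of the start in both tables and 9 had one after PHx only. Judged by that window, 85 genes had a region at the start in both tables, 49.4%, where 59.1% of all 10925 genes with a listed start did. A further 42 had it in PHx only, 24.4% against 17.8%, 10 in sham only, 5.81% against 8.19%, and 35 in neither, 20.3% against 14.9%. With all regions set to 1 width the order of the one-table counts turned: 31 starts were then covered in the sham table alone and 20 in the PHx table alone. The authors numbered the peaks of each library, and numbers that no listed region holds stand for peaks left out of the tables. Counting a start as uncovered only in stretches without such numbers, 13 of the 42 and 2 of the 10 genes were left, where 294 of 1947 and 145 of 895 were over all genes. Absence from a table is therefore absence from a list, not of signal.

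**Figure D1:**
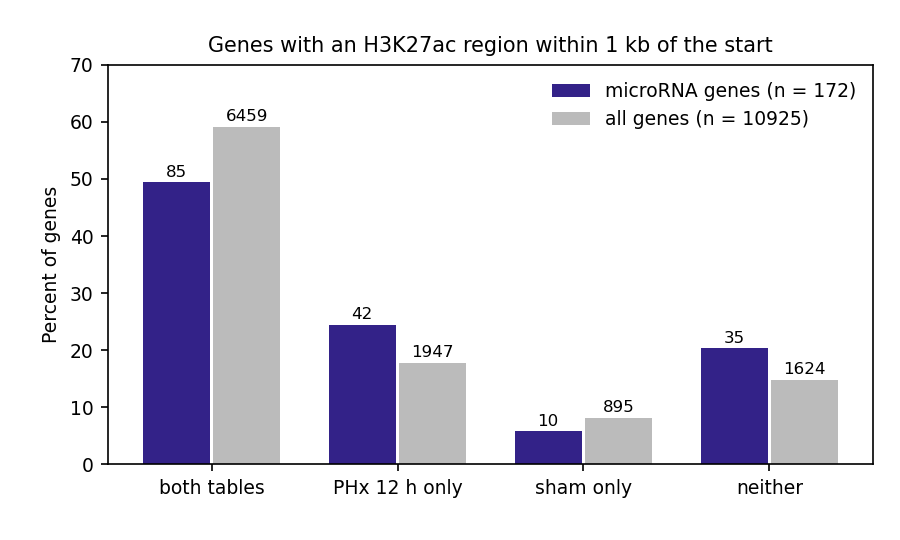
Percent of genes (vertical axis) with a region within 1 kb of the start in both tables, PHx 12 h only, sham only or neither, for 172 microRNA genes (dark bars) and all 10925 genes with a listed start (grey bars), with gene counts above the bars. MicroRNA genes had 42 starts in PHx only and 10 in sham only.

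In the list of let-7 genes, which restrain growth genes, and their cluster partners, 5 of 21 genes were named in the tables, and 4 of these had a region at the start in both. For scale here and in the lists below, 171 of all 1180 RefSeq microRNA genes were named. Mirlet7i had its own intergenic region on chromosome 10, of 8421 bp in sham (122818339 to 122826759) and 12287 bp after PHx (122816413 to 122828699). Each was built from 1 peak of each library. Mirlet7g lies in Wdr82, which encodes a subunit of a histone methyltransferase complex, on chromosome 9. Its start was covered after PHx by a region of 14882 bp (106045498 to 106060379) that also held the Wdr82 start. In sham the Wdr82 region of 9632 bp ended 1718 bp short of the hairpin, so both tables had a region at this locus and its place in PHx only rests on that gap. Unused sham peak numbers fell in that stretch, so absence of sham signal cannot be read there. Mir1961, whose mature form shares the let-7 seed, lies in Shroom3 on the opposite strand and had a region of 23338 bp after PHx only, with the nearest sham region 64058 bp away. Mir1961 was named after its values were seen, and its stretch held unused sham peak numbers.

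The cluster of Mir99b and Mir125a, within Spaca6 on chromosome 17, was named for different members in the 2 tables. In sham a region of 5815 bp was assigned to Mir99b (18045178 to 18050992) and ended 82 bp before the start of Mir125a. After PHx a region of 16188 bp (18045419 to 18061606) was assigned to Mir125a and covered both starts and that of Spaca6. The names alone would have put Mir99b in sham only and Mir125a in PHx only. Mir99ahg, host of the microRNAs Mir99a, Mirlet7c-1 and Mir125b-2, had regions at its own start of 9077 and 8398 bp. Unlike most members, it was narrower after PHx.

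In the list called hepatocyte-rich, 7 of 32 genes were named in the tables, and 6 had a region at the start in both. Of these, Mir23b and Mir3074-1 were covered by the same region in each table. Mir148a, one of the most abundant hepatic microRNAs and a promoter of hepatocyte differentiation, had regions of 9848 bp (sham) and 9021 bp (PHx) on chromosome 6 (51241381 to 51251228 and 51241888 to 51250908), a ratio of 0.916. Mir802, a regulator of hepatic glucose handling, had 7880 and 11500 bp on chromosome 16 (93161867 to 93169746 and 93160459 to 93171958). Both regions lay over the hairpin in each table, each from 1 peak per library, and the width ratio of Mir802, 1.46, was that of the median pair given further on.

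The miR-101 genes, which target chromatin regulators and growth genes, were covered differently. Mir101b lies in Rcl1, an rRNA processing gene, on chromosome 19. Its sham region of 37677 bp was the fourth widest member of that table. Its PHx region of 53168 bp also took in a second sham region of 6134 bp. Mir101a, on chromosome 4, was the one hepatocyte gene of the list with a region at the start in sham only. There a region of 13451 bp, named for 0610043K17Rik, covered the hairpin. After PHx the flanks were covered by a region of 28243 bp on one side and by one of 14273 bp on the other, which began 1842 bp from the start. Its count in sham only thus rests on a gap of PHx regions around the hairpin.

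Mir23b and Mir3074-1 lie on opposite strands of Aopep, an aminopeptidase gene, on chromosome 13. A sham region of 18281 bp covered both hairpins. After PHx they lay within a region of 111980 bp named for Aopep, which also held the Aopep start, a ratio of 6.13. That PHx region also took in further sham regions, named for Aopep, Gm16907 and Mir3074-1. The ratio thus sets only the sham region over the hairpins against a PHx region that joined several. Mir455, in the collagen gene Col27a1, lay in regions named for its host of 17243 and 51619 bp, so that the regions assigned to Mir455 itself were others, 14567 bp away in sham and 29818 bp after PHx.

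**Figure D2:**
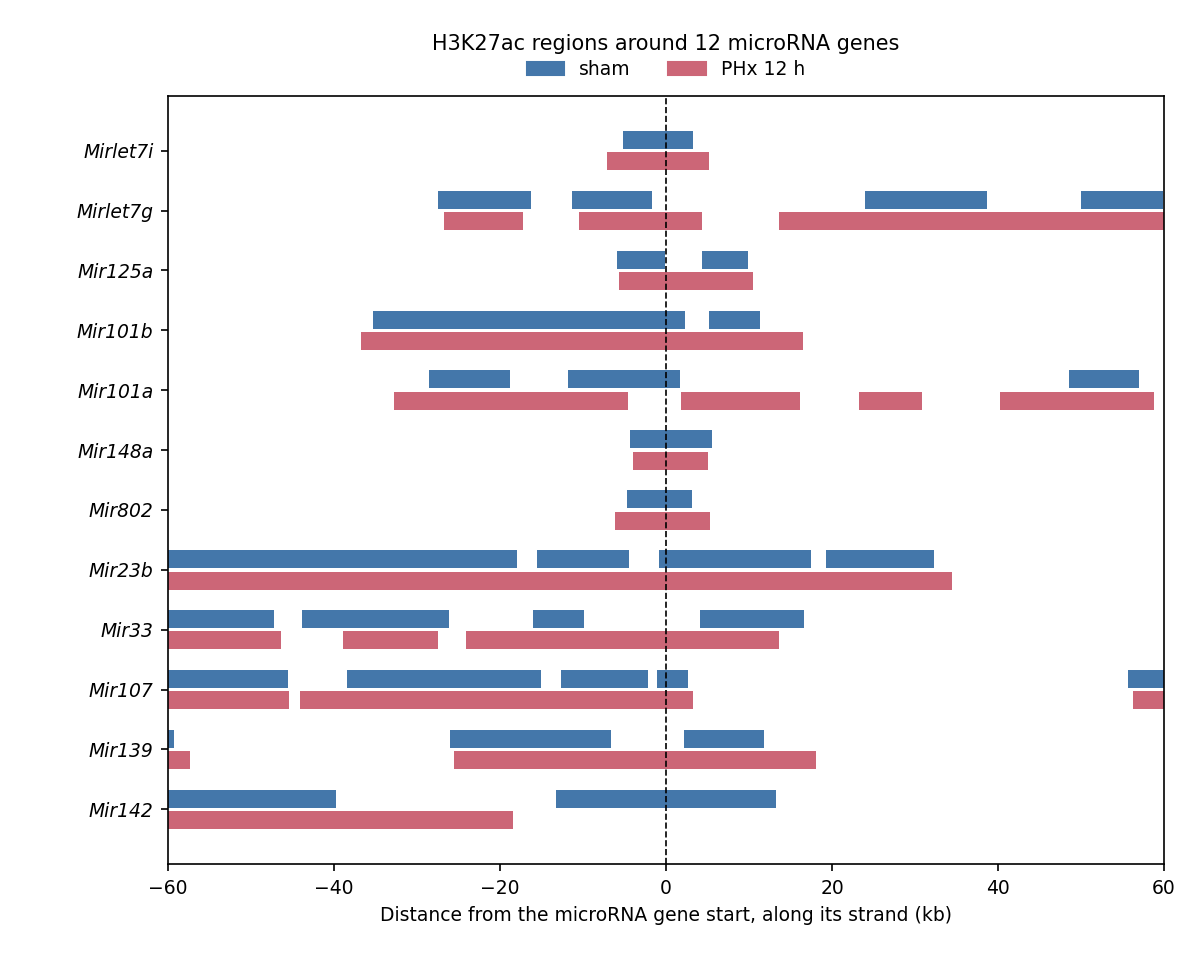
Regions within 60 kb of 12 microRNA gene starts (dashed line), drawn along the strand of each gene, with sham regions above and PHx 12 h regions below in each row; the horizontal axis is distance in kb. At Mir33, Mir139 and Mirlet7g a PHx region spans the start between or beside sham regions, and Mir148a and Mir802 have similar regions in both tables. Mir142 has a sham region with no listed PHx partner.

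MicroRNAs of lipid and glucose metabolism were covered after PHx about as often as the other members. Of 23 listed genes 8 were named, 4 with a region at the start in both tables, 2 in PHx only and 2 in neither, so that 6 of 8 had a PHx region at the start, where 127 of all 172 member genes did. Mir33, which represses cholesterol export, lies in an intron of Srebf2, the master regulator of cholesterol synthesis, on chromosome 15. After PHx its start was inside a region of 37615 bp (82058268 to 82095882), made of 1 peak of library 1 and 2 of library 2. In sham the same stretch held a region of 6204 bp in Srebf2, 9827 bp upstream, and one of 12530 bp named for Shisa8 that began 4156 bp downstream. The interval around the Mir33 hairpin was therefore uncovered in sham and covered after PHx, between flanks covered in both.

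Mir107 and Mir103-2, which share a seed and modulate insulin signalling, lie in Pank1 and Pank2, genes of coenzyme A synthesis. At Mir107 on chromosome 19 a sham region of only 3737 bp (34795554 to 34799290) held the hairpin. After PHx it was inside a region of 47281 bp (34794937 to 34842217) that also took in sham regions of 10449 and 23392 bp, a ratio of 12.7. The sham table thus had 3 separate regions where the PHx table had 1, which joined 1 peak of library 1 and 2 of library 2. Mir103-2 had no region at the start, with 1 of 10157 bp 17295 bp away after PHx and a Pank2 region 22282 bp away in sham.

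Both Mir29b genes, whose product represses collagens, were named in sham only, and the PHx regions at or next to their hairpins were named for long noncoding RNAs. At Mir29b-2 a sham region of 7364 bp lay within a PHx region of 65789 bp, which was named for A330023F24Rik and overlapped more than this sham region. At Mir29b-1 no sham region reached the start, the nearest being 9931 bp away. The PHx region there, of 161938 bp and named for 2210408F21Rik, ended 863 bp from the hairpin start. It overlapped 4 sham regions, among them one of 74377 bp. Mir378a, in the coactivator gene Ppargc1b, was covered in both tables by regions named for Gm52354, of 11297 and 50927 bp. The latter, after PHx, also overlapped sham regions of 16217 and 6041 bp assigned to Mir378a. Mir499, in the myosin gene Myh7b, had 14234 and 28159 bp, and its PHx region also overlapped a sham region of 14618 bp. Mir34a, a target of p53, had no region at the start in either table, the nearest being 15677 bp away in sham and 15775 bp after PHx.

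Few loci of growth control, blood cells or vessels were named, where 171 of all 1180 RefSeq microRNA genes were. Of 32 genes of growth and the cell cycle only Mir15a was, and its regions lay in the first intron of Dleu2, its host, 13194 bp from the hairpin in sham (7898 bp wide) and 12692 bp after PHx (11461 bp). Of 25 genes of leukocytes and inflammation 2 were. Mir142, a microRNA of blood cells, had a region of 26588 bp at the start in sham only (chromosome 11, 87634397 to 87660984), from 1 peak per library. The nearest PHx region, 78254 bp wide, ended 18405 bp away. Mir146, a feedback inhibitor of inflammatory signalling, was named in PHx only, by a distal region of 12382 bp whose edge lay 14487 bp from the hairpin, and the nearest sham region was 248453 bp away. Unused peak numbers fell in these stretches, of PHx at Mir142 and of sham at Mir146, so absence of signal cannot be read there. Of 28 endothelial and mesenchymal genes 0 were named. A region can cover a start without naming it, and the starts of unnamed genes are unknown, so these are counts of names. The other listed genes were not analysed here.

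The 42 genes with a start covered in PHx only were mostly reached by regions that also overlapped sham regions. This was the case for 27 of them, 64.3%, where 38.1% of all genes with a start in PHx only were so placed. After Mir29b-1, the widest covering regions were at Mir7032 (67046 bp), Mir7227 (61950 bp), within the chromatin remodeller gene Arid1a, and Mir6374 (60245 bp), within the DNA demethylase gene Tet3. Mir139, a microRNA of Pde2a with reported tumour suppressor activity in liver, came next. Its PHx region of 43657 bp on chromosome 7 (101099034 to 101142690) had 1 peak of each library and overlapped sham regions of 19465 bp at Pde2a and 9700 bp, the latter 2121 bp from the hairpin. The remaining 15 genes had covering regions with no sham overlap, of 5549 bp at Mir8105 to 24121 bp at Mir5625. Among these were Mir21c (19104 bp), Mir687 (16780 bp), within the retinoblastoma gene Rb1, Mir6367 (14155 bp), whose mature form shares the seed of miR-125a-5p, and Mir1249 (14257 bp), which were named after their values were seen. All of the 15 but Mir687 and Mir7079 lay in stretches with unused sham peak numbers, so absence of sham signal cannot be read there. Mir7079 was also named after its values were seen.

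Of the 10 genes covered in sham only, 2 had a region that overlapped a PHx region elsewhere, 20% against 6.59% of all such genes, and 8 had none. The widest was that of Mir142, followed by Mir6945 (16444 bp), Mir101a, Mir6941 (12148 bp) and Mir7219 (11962 bp). The region of Mir6945 overlapped a PHx region of 6728 bp named for Pdlim7 that did not reach the hairpin, and this had the smallest ratio, 0.409, of the regions matched 1 to 1 described further on. Mir28a, in the Lpp gene, had 7222 bp in sham only and was named after its value was seen. The 8 genes without overlap all lay in stretches with unused PHx peak numbers.

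Where the start was covered in both tables, the PHx region was usually the wider. Of the 85 genes, 76 had a wider region after PHx, 89.4% against 91.5% of all genes covered in both. At least 1.5 times wider were 54, 63.5% against 60.2%. The median ratio was 1.95 (quartiles 1.31 and 3.81), against 1.74 for all genes (1.24 and 2.81). The highest ratio, 14.2, was at Mir6933, in Pgs1 on chromosome 11, from 6746 to 95855 bp (117887849 to 117894594 and 117812487 to 117908341), with 1 peak of library 1 and 3 of library 2 in the PHx region. That region also held the starts of Pgs1 and of Socs3, the inhibitor of interleukin-6 signalling, and overlapped 5 sham regions. The region over the Socs3 start after PHx is thus listed under a microRNA name. Mir7671 had a sham region of 9520 bp, and its PHx region of 61232 bp also held the start of the interferon regulatory factor gene Irf1. Mir7041 had 14369 bp in sham and lay in a PHx region of 113959 bp at Lrig1. Each of these PHx regions overlapped more than 1 sham region. Both genes were picked after their values were seen.

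**Figure D3:**
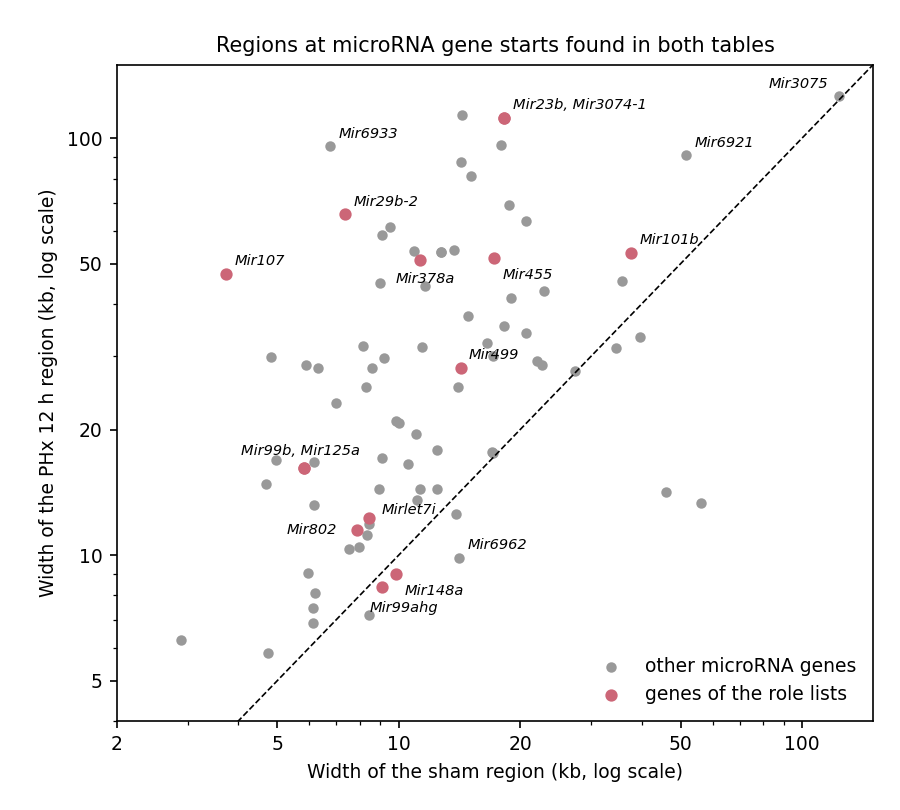
Width of the region at the start in sham (horizontal, kb, log scale) and after PHx 12 h (vertical, kb, log scale) for the 85 microRNA genes covered in both tables; the dashed line marks equal width, and red points are genes of the role lists. Of the points, 76 lie above the line, with Mir107 and Mir6933 farthest from it and Mir148a and Mir99ahg just below.

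The widest members differed in how they compared. Mir3075, in Zmiz1, a transcriptional coactivator gene on chromosome 14, lay in regions of 123534 bp (sham) and 126273 bp (PHx), the widest member of each table and the widest of all regions in sham. Mir6921, in Srebf1, the regulator of fatty acid synthesis, had 51594 and 91198 bp, and its PHx region also overlapped sham regions of 9564 and 7364 bp. The fifth widest sham member, of 36016 bp, was an intron region of Macf1, a cytoskeletal linker gene, assigned to Mir6398 at a distance of 9874 bp. Together with the sham region of 17975 bp over the Mir6398 hairpin it lay within a PHx region of 96450 bp named for Gm35241. Mir7087 went the other way, with 14162 bp after PHx against 45898 bp in the sham table. The sham region there overlapped 3 PHx regions, of 22505, 14162 and 25617 bp. Mir7001, in a sham region of 56234 bp named for Cd82 and a PHx region of 13300 bp, had the lowest ratio of genes covered in both, 0.237. That sham region also overlapped more than the PHx region over the hairpin, so the ratio compares it with only a part of its PHx counterparts. Mir7001 was named after its value was seen.

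Regions matched 1 to 1 between the tables, with a microRNA name in at least 1 of them, formed 74 pairs. Of these 66 were wider after PHx, 89.2%, where 89% of all 6164 pairs were. A region can enter these pairs because its wider PHx partner reached a hairpin and took its name, so the ratios of the 74 pairs are not independent of their choice. At least 1.5 times wider were 36, 48.6% against 49%, and 1 was at least 1.5 times narrower, 1.35% against 1.25%. The median ratio was 1.46 (quartiles 1.22 and 2.65), and that of all pairs was 1.49 (1.15 and 2.08). In the 57 pairs named for the same microRNA gene in both tables the median was 1.38 (1.15 and 2.17), and 22, or 38.6%, were at least 1.5 times wider. The largest ratios were at Mir3108, in the transcription factor gene Zfhx3, with 2 pairs at 5.54 (4008 and 22192 bp) and 4.02 (6669 and 26788 bp), at Mir190a, in the talin gene Tln2, with 4.86 (5879 and 28552 bp), at Mir7021 with 4.76, and at Mir7017, in Wasf2, with 4.34. Among the smallest besides Mir6945 were those at Mir6962 (0.698), Mir3076 (0.901) and Mir1942 (0.906).

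**Figure D4:**
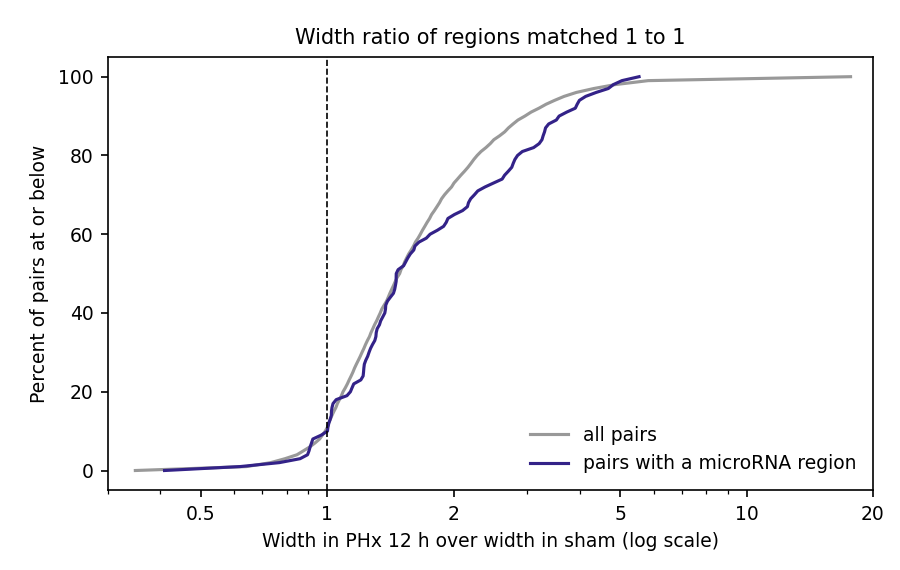
Percent of pairs (vertical axis) at or below each ratio of PHx 12 h to sham width (horizontal axis, log scale) for 74 pairs with a microRNA region (dark line) and all 6164 pairs (grey line); the dashed line marks equal width. Both curves cross 50% near 1.5, and the microRNA curve lies to the right of the grey one over most of its upper part, but to the left at the top end.

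Most members lay inside other genes. By RefSeq names in GRCm38.p6, 147 of the 171 hairpins, 86.0%, were within a protein-coding gene, where 67.3% of all 1180 microRNA genes were, and 110 were recorded on the strand of that gene. Only 19 lay in no other gene, among them Mirlet7i, Mir802, Mir142, Mir34a and Mir320. A protein-coding start of another gene was inside the covering region for 9 of 95 covered starts in sham, 9.47% against 5.36% over all covered starts. After PHx it was so for 49 of 127, 38.6% against 18.6%. Where a same-strand host had a listed start, the region over the hairpin also held it for 5 of 30 genes in sham and for 29 of 44 after PHx. These included Wdr82 at Mirlet7g, Aopep at Mir23b and Col27a1 at Mir455. The median PHx region was also wider, and a start is listed only where some region was named for that gene.

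Members were joined from peaks in the way of the other regions. In sham 83.2% had 1 peak of each library, against 86.5% of all regions, and after PHx 82.8% against 84.5%. Library 2 alone was split in 17 PHx members and library 1 alone in 4, 13.3 and 3.12%, where 11.5 and 2.42% of all PHx regions were. By chromosome, 20 sham and 14 PHx members lay on chromosome 11, 12.9 and 10.9% against 7.88 and 7.43% of all regions.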

How the data were processed

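H3K27ac CUT&Tag was run on 2 sham and 2 PHx livers' libraries. Bowtie2, SEACR, ChIPseeker, DiffBind and the build GRCm39 (mm39) are named in the submitters' processing notes, without versions or settings. The authors deposited 1 annotated table per group, in which regions join the peaks of both libraries, per the file headers. The tables hold no counts, scores or signal, so the precision that depth gives is unknown. Wider regions can join neighbouring peaks and reach more starts, and the annotation names 1 gene per region.

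Regions were compared in Python 3.11.15 (pandas 2.3.3, numpy 2.4.6) by at least 1 shared bp. A start counted as covered with a region within 1 kb. Ratios used regions that overlapped 1 to 1. Intervals for shares are Clopper-Pearson (scipy 1.17.1), for counting error only. The scripts were tested on simulated regions. Host genes and sequences came from RefSeq GRCm38.p6, by name. Named genes were those of 6 role lists (160 genes), the 5 widest regions of each table, the 5 widest at one-table starts, and the 5 largest and smallest ratios; others are marked, and 1 gene under this rule is not reported here. The members, lists and tests were chosen with earlier results of these data known. Alternatives were the overlap rule, the start window, equal widths, leaving out the narrowest regions or host gene names, and unused peak numbers.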

Additional observations from a re-analysis of the deposited data

How the results depend on the processing

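Of 48 alternative values, 34 were classed as the same as the value reported and 14 as moved. The class called the same was broad. It held 67 starts in both tables without the narrowest regions and 100 with a 3 kb window, against 85. It also held 61 names in both tables without the narrowest regions, against 78. Counts, shares, widths and width ratios have no sign to change, so none could reverse in that sense. With equal widths the order of the one-table counts turned. With a reciprocal overlap of 50%, the overlapping share fell to 32.9% of sham and 43% of PHx members, and the median width ratio of pairs was 1.32. With all regions set to the sham median width (8152 bp), 59.4% of sham members overlapped, and starts were covered in both tables for 46 genes, in the sham table alone for 31 and in the PHx table alone for 20. Without regions under the lower width quartile of each table, starts in sham only numbered 17. Members without overlap were left out where their stretch held unused peak numbers, which could only raise the overlapping share. Of the members kept, 97.1% in sham (134 overlapping, 4 not) and 96.9% after PHx (95 overlapping, 3 not) overlapped. Counting a start as uncovered only in stretches without such numbers, starts in the PHx table alone numbered 13 and in the sham table alone 2. For gene names in 1 table alone, those with a region overlapping the other table were dropped as well. This left 2 names in the PHx table alone and 3 in the sham table alone. The cause of these moves was not tested. Leaving out each replicate could not be done, since the libraries are merged. No paired analysis was possible because the tables hold no values per library. Depth cannot be judged without counts, and the one-table counts depend on region width and on peaks left out of the lists.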
